A study of Arabidopsis thaliana with 9 samples.

Results

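The aquaporin genes of Arabidopsis thaliana were taken as every gene whose deposited description holds the words intrinsic protein or aquaporin, in either case, and which had a count in at least 1 library. The rule found 35 of 27218 genes: 13 plasma membrane intrinsic proteins (PIPs), 9 tonoplast intrinsic proteins (TIPs), 8 NOD26-like intrinsic proteins (NIPs), 3 small basic intrinsic proteins (SIPs) and 2 short unclassified loci, AT2G16835 and AT2G29870. Of these, 28 had enough counts to be tested and 7 did not, with at most 16 counts in any library.

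RNA was sequenced from whole seedlings in 9 libraries. The groups were seedlings that overexpress SR45a-1a, a splice variant of SR45a (SR45a-1a-OE), sr45a mutants, and wild type (WT), with 3 libraries each. All seedlings were 2 weeks old and all had spent 3 h at 45 °C, so the effect of heat itself was not measurable. SR45a encodes a serine/arginine-rich protein that acts in pre-mRNA splicing. The promoter of the overexpression construct, the number of lines and the sr45a allele are not given in the sources used here. Nothing said that the 3 libraries of a group came from separate plants or cultures, so p-values cover the spread among these libraries, which may be technical.

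Aquaporins are membrane channels that let water, and in some members small solutes such as hydrogen peroxide, boric acid, urea, ammonia or carbon dioxide, pass down their gradient. PIPs sit mainly in the plasma membrane and set the water permeability of root and leaf cells, while TIPs sit in the vacuole membrane, where they are among the most abundant proteins. NIPs carry mostly uncharged solutes, and SIPs sit in the endoplasmic reticulum.

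The pore of an aquaporin is lined by a pair of conserved loops, each named the NPA box after its asparagine, proline and alanine residues. The stretches below, from the TAIR10.1 genome and the RefSeq coding sequences, show these codons in capitals in members that the results turn on. They are written 5′ to 3′ in the direction of the gene.
GAMMA-TIP box 1, chr2:15445727-15445765, + strand: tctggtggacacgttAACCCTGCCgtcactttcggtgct
GAMMA-TIP box 2, chr2:15446160-15446198, + strand: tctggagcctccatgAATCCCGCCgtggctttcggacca
TIP4;1 box 1, chr2:11012985-11013023, + strand: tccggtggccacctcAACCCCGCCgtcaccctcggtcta
NIP3;1 box 1, chr1:11450987-11451025, + strand: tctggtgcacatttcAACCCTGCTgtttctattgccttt
NIP5;1 site 1, chr4:6432354-6432392, - strand: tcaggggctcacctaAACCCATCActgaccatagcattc
NIP5;1 site 2, chr4:6431680-6431718, - strand: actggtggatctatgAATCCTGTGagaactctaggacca
The codons searched were AACCCNGCN and AATCCNGCN, in frame and on the coding strand. Of the 35 genes, 25 held 2 matches, 9 held 1 and NIP5;1 held 0. For NIP5;1 the capitals mark the 2 places where the first codons of the box were found without the last. The coding sequences ran from 198 bases in AT2G16835 to 987 bases in PIP2B.

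Depth was 18036195 to 21864604 gene counts per library. Values in CPM are counts scaled to a common library total with trimmed-mean (TMM) factors, for comparisons of 1 gene between libraries. Levels of different genes are compared in FPKM, the deposited unit scaled to gene length. SR45a itself had 1010 to 1173 CPM in SR45a-1a-OE, 1.90 to 7.27 CPM in sr45a and 401.0 to 432.8 CPM in WT. On the first principal component of all genes, replicate 3 of SR45a-1a-OE (16.2) lay apart from the other two of its group (48.3 and 47.0), and replicate 3 of sr45a (4.70) from its own (-25.4 and -22.2). WT lay at -25.3 to -20.9. Of the 6 green shoot markers, 0 passed in edgeR in any comparison. At an unadjusted p under 0.05 there were 2 in SR45a-1a-OE against WT, 1 in sr45a against WT and 0 between the lines, and DESeq2 called 2, 1 and 0. Of the 10 tested root markers 2 were higher and 1 lower in SR45a-1a-OE against WT, beside 6.76% and 8.59% of all genes tested. In sr45a against WT 0 were higher and 1 lower, beside 0.861% and 0.761%. In SR45a-1a-OE against sr45a 2 were higher and 0 lower, beside 2.81% and 4.45%. Root markers summed to 1177–1450 CPM in SR45a-1a-OE, 1030–1200 CPM in sr45a and 1039–1269 CPM in WT, and their part in the results was not tested. In whole seedlings, fewer cells of a type and less RNA per cell cannot be told apart.

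Levels spanned a wide range among the 35 genes. In WT, 12 genes averaged at least 100 FPKM, and across the 3 genotypes 13 reached that mean in some group and 8 stayed under 1 FPKM in every group. The highest in WT were TIP2 (systematic name TIP1;2, AT3G26520), GAMMA-TIP (TIP1;1, AT2G36830), PIP2A (PIP2;1, AT3G53420) and PIP1B (PIP1;2, AT2G45960). By mean FPKM in WT, TIP2 held rank 21 and GAMMA-TIP rank 30 among all 27218 genes. The ranges of PIP2A and PIP1B overlapped in WT, so their order was not resolved. TIP2 had the highest mean in SR45a-1a-OE, sr45a and WT. GAMMA-TIP came after PIP2A by mean in SR45a-1a-OE, but their ranges overlapped there, so that order was not resolved either.

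**Figure D1:**
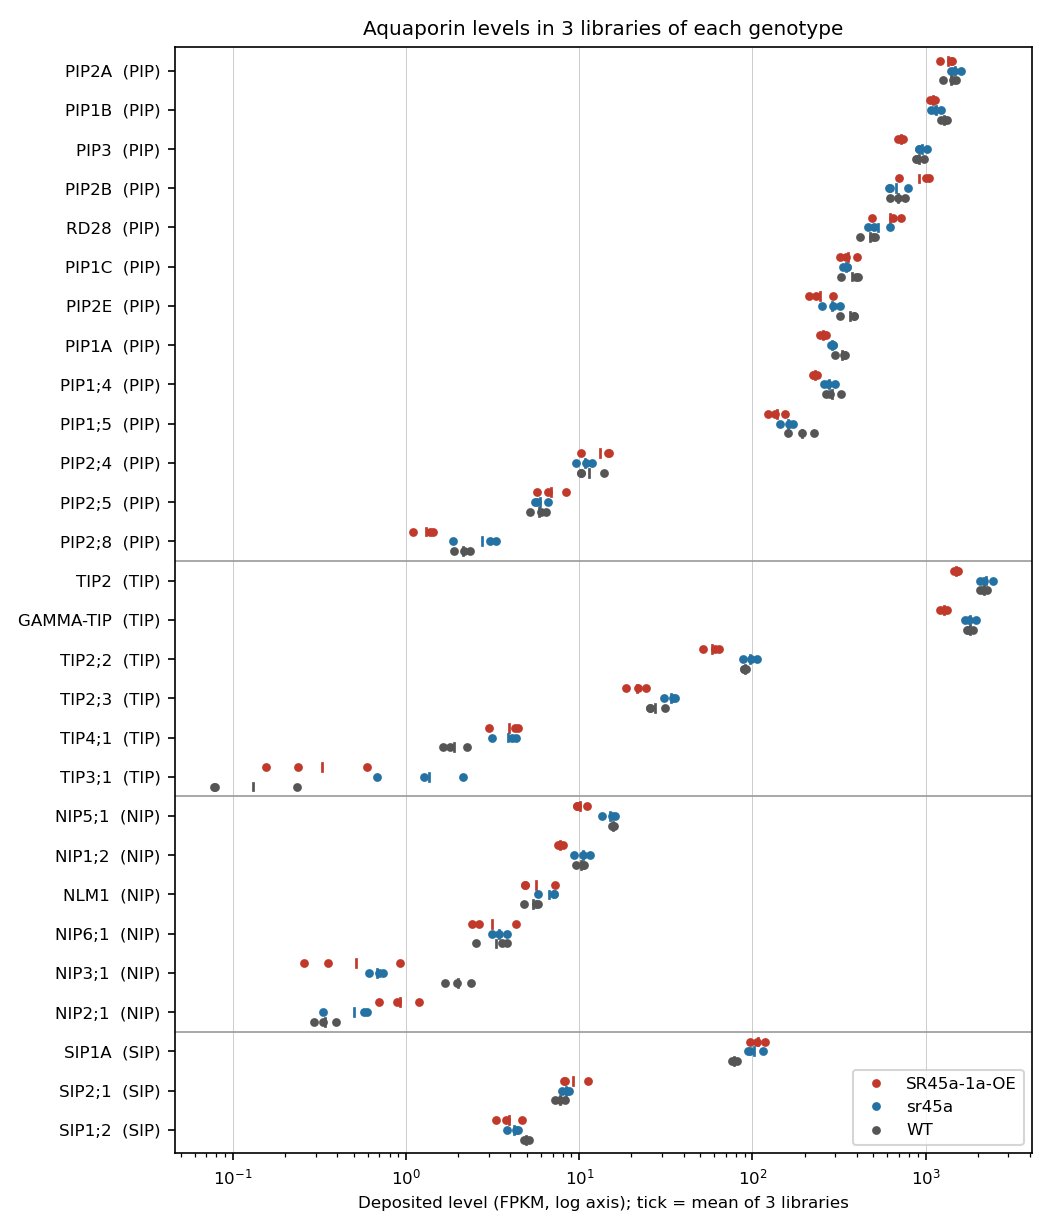
Deposited level in FPKM on a log axis of each of the 28 tested aquaporin genes, by family, with 1 point per library and a tick at the mean of 3 libraries, SR45a-1a-OE above sr45a above WT. TIP2 and GAMMA-TIP lie at 1503 and 1276 FPKM in SR45a-1a-OE, below 2235 and 1813 FPKM in sr45a and 2165 and 1799 FPKM in WT.

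The aquaporin family took 1.32%, 1.34% and 1.25% of all gene counts in SR45a-1a-OE, 1.59%, 1.46% and 1.51% in sr45a and 1.53%, 1.61% and 1.46% in WT. All SR45a-1a-OE libraries lay under all others. TIPs made most of that gap: they took 0.363% ± 0.0117 of counts in SR45a-1a-OE, 0.530% ± 0.0424 in sr45a and 0.518% ± 0.0212 in WT (SD, n = 3 each). PIP1 genes took 0.335% ± 0.00407, 0.358% ± 0.0183 and 0.398% ± 0.0213 in the same order of genotypes. PIP2 genes took 0.583% ± 0.0475 in SR45a-1a-OE, 0.607% ± 0.0323 in sr45a and 0.600% ± 0.0356 in WT, and the 3 groups overlapped. These shares are descriptions with no test.

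**Figure D2:**
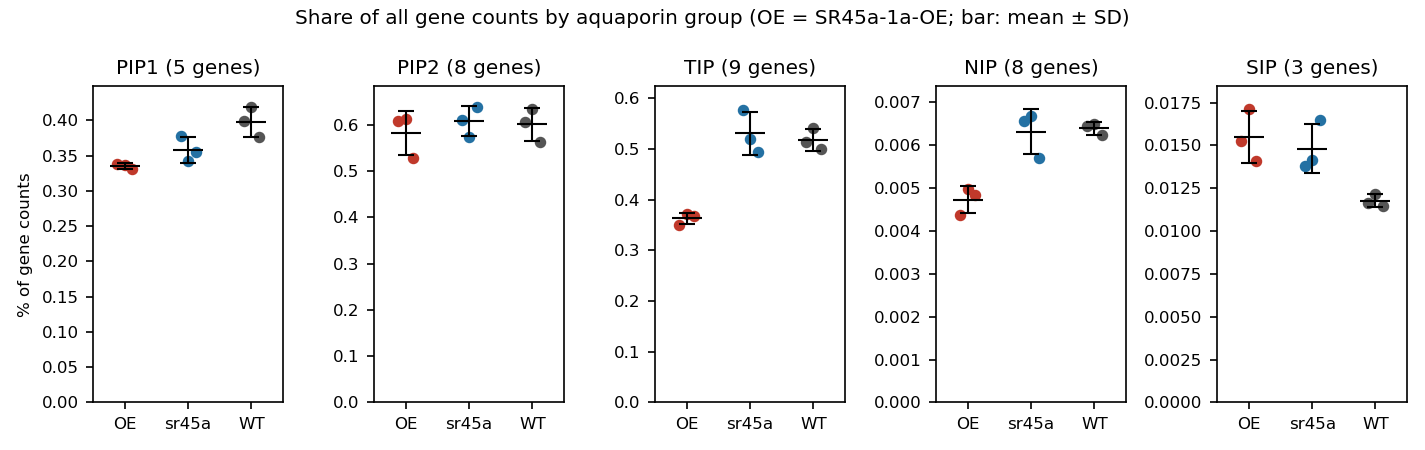
Share of all gene counts in percent taken by PIP1, PIP2, TIP, NIP and SIP genes, with 1 point per library and bars at the mean ± SD of 3 libraries, for SR45a-1a-OE (OE), sr45a and WT from left to right. The TIP share is 0.363% in SR45a-1a-OE, 0.530% in sr45a and 0.518% in WT, while the PIP2 groups overlap.

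With SR45a-1a overexpressed, the main vacuolar channels fell, while 3 genes of lower level rose. Against WT, 9 of 28 tested members passed (32.1%), where 15.3% of all 20103 genes tested did. A call needed an adjusted p under 0.05 in edgeR's quasi-likelihood test, with Benjamini-Hochberg adjustment over all genes. The count was 4 without WT replicate 2 and 5 without SR45a-1a-OE replicate 1 or WT replicate 3. The 3 that rose were TIP4;1, NIP2;1 and SIP1A, beside 6.76% of all genes. The 6 that fell were PIP2E, GAMMA-TIP, TIP2, TIP2;2, NIP3;1 and NIP5;1, beside 8.59% of all genes. Groups did not overlap in CPM for 16 members (57.1%), 4 of them higher and 12 lower in SR45a-1a-OE, where 35.5% of all genes tested did not overlap. The median log2 fold change of the 28 was -0.23, against 0.01 over all genes. The comparisons of SR45a-1a-OE and of sr45a with WT share the WT libraries, so their values are given side by side.

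In sr45a, 2 of 28 tested members passed against WT (7.14%), TIP3;1 and TIP4;1, both higher, where 1.62% of all genes passed, 0.861% higher and 0.761% lower. The count was 0 without sr45a replicate 1 or 2 or WT replicate 1 or 2, and 1 without WT replicate 3. Groups did not overlap for 7 members (25%), beside 24.1% of all genes. The median log2 fold change was 0.03, against -0.00048 over all genes. TIP3;1 met the count filter only through its sr45a libraries, where it was high. Its calls in sr45a against WT and between the lines are therefore not independent of that filter. Between the lines, 7 of 28 members (25%) passed and all 7 were lower in SR45a-1a-OE than in sr45a: PIP2;8, GAMMA-TIP, TIP2, TIP2;2, TIP2;3, TIP3;1 and NIP5;1. The count was 0 without sr45a replicate 1, 1 without sr45a replicate 2, 2 without SR45a-1a-OE replicate 1 and 3 without SR45a-1a-OE replicate 2, but 11 without replicate 3 of both lines. Of all genes 7.26% passed there, 2.81% higher and 4.45% lower. Groups did not overlap for 11 members (39.3%), beside 25.2% of all genes, and the median log2 fold change was -0.13, against 0.01 over all genes.

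**Figure D3:**
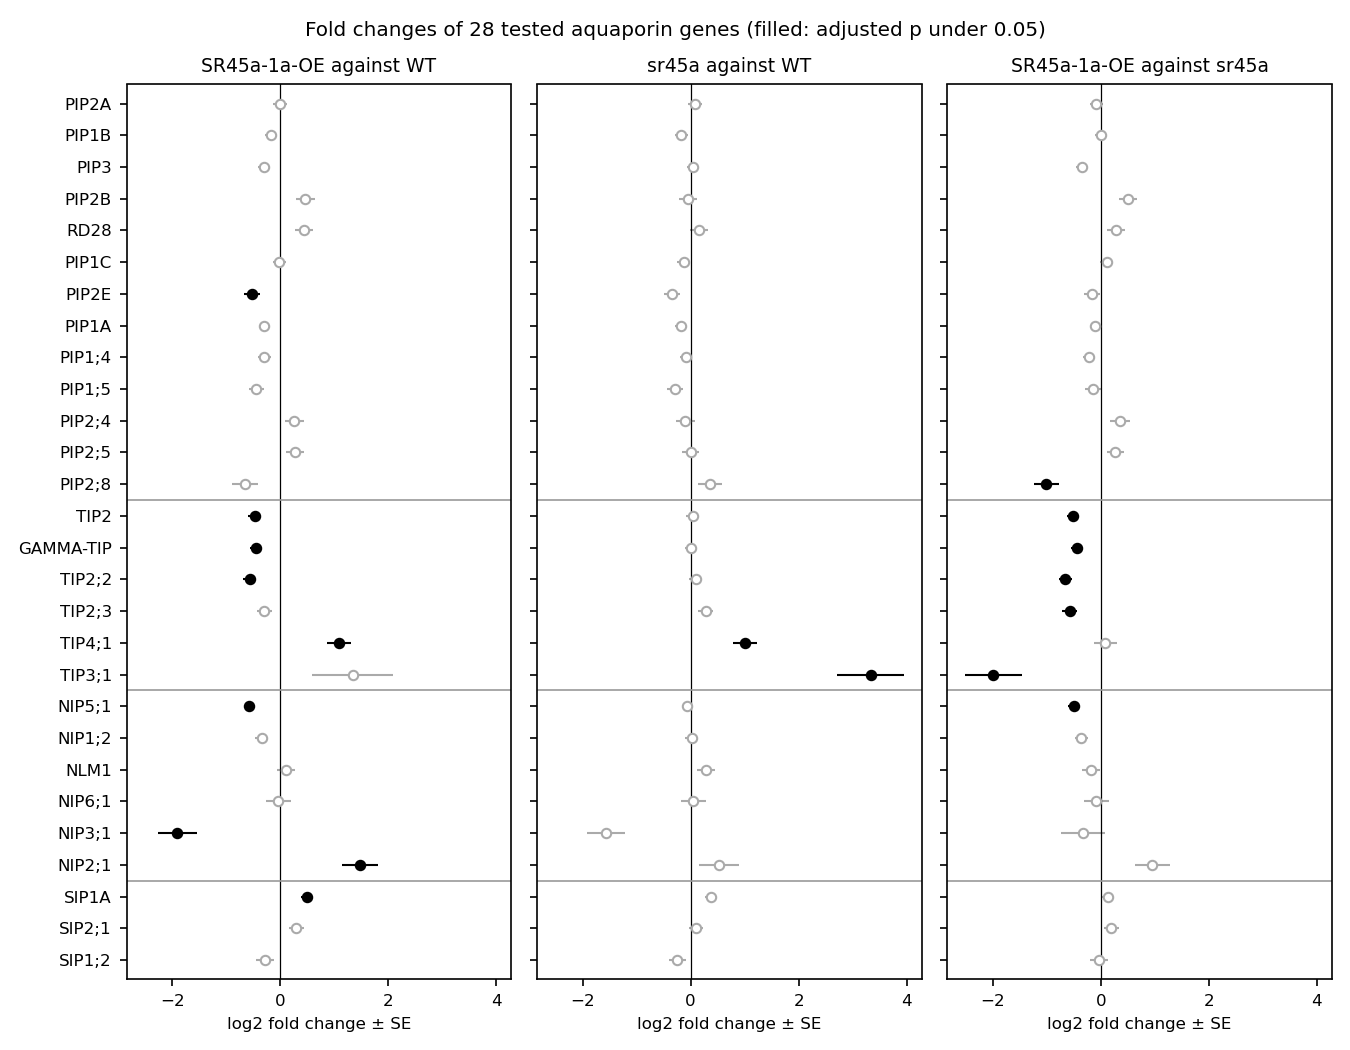
Log2 fold change with its SE for the 28 tested aquaporin genes in SR45a-1a-OE against WT, sr45a against WT and SR45a-1a-OE against sr45a, with filled points past an adjusted p of 0.05 and lines between PIP, TIP, NIP and SIP genes. In the left panel 3 filled points lie above 0 and 6 below, in the middle panel 2 above, and in the right panel 7 below.

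Among the PIPs, which carry water across the plasma membrane, 1 of 13 tested genes passed in SR45a-1a-OE against WT. This share of 7.69% lay under the 15.3% of all genes. PIP2E (PIP2;6, AT2G39010, chr2:16291280-16294101) had 536.5, 455.4 and 637.1 CPM in SR45a-1a-OE, 689.6, 601.1 and 539.5 in sr45a and 667.0, 828.1 and 838.6 CPM in WT. The SR45a-1a-OE libraries lay under all WT libraries, and the sr45a libraries overlapped both groups. Its log2 fold change was -0.52 ± 0.15 (SE) in SR45a-1a-OE against WT (adjusted p = 0.0377, edgeR) and -0.35 ± 0.15 in sr45a against WT (adjusted p = 0.283, edgeR). The call was lost without SR45a-1a-OE replicate 1 (adjusted p = 0.125, edgeR), SR45a-1a-OE replicate 2 (0.104), WT replicate 2 (0.133) or WT replicate 3 (0.112), and with only the 6 libraries compared (0.0501).

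PIP2;8 (AT2G16850, chr2:7301334-7303509), a PIP of low level, had 1.74, 2.04 and 2.13 CPM in SR45a-1a-OE, 4.53, 4.66 and 2.74 in sr45a and 3.32, 3.17 and 2.83 CPM in WT. All SR45a-1a-OE libraries lay under both other groups, and sr45a replicate 3 lay under the WT libraries. Against sr45a it fell in SR45a-1a-OE, with a log2 fold change of -1.01 ± 0.23 (adjusted p = 0.0263, edgeR). Against WT the log2 fold change was -0.66 ± 0.23 (adjusted p = 0.0778, edgeR), past the threshold without replicate 3 of both lines (0.0316). The call against sr45a was lost without SR45a-1a-OE replicate 1 (adjusted p = 0.115, edgeR) or 2 (0.054), or sr45a replicate 1 (0.131) or 2 (0.101). It was also lost with only those 6 libraries fitted (adjusted p = 0.0705, edgeR) and in limma on log2(FPKM + 1) of all genes with no filter (0.0545).

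PIP2A, a main water channel of roots and leaves, had 2401, 2208 and 1919 CPM in SR45a-1a-OE, 2307, 2103 and 2500 in sr45a and 2197, 2345 and 2024 CPM in WT. The 3 groups overlapped, and the log2 fold change of SR45a-1a-OE against WT was -0.01 ± 0.13. PIP1B, which also passes carbon dioxide, had 1938, 1692 and 1793 CPM in SR45a-1a-OE, 1953, 1646 and 1811 in sr45a and 1999, 2116 and 1983 CPM in WT. WT lay above both lines, and the log2 fold change was -0.17 ± 0.12 in SR45a-1a-OE (adjusted p = 0.341, edgeR) and -0.17 ± 0.12 in sr45a (adjusted p = 0.496, edgeR).

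PIP3 (PIP2;7, AT4G35100) had 1236, 1116 and 1194 CPM in SR45a-1a-OE, 1626, 1405 and 1463 in sr45a and 1364, 1557 and 1451 CPM in WT. SR45a-1a-OE lay under both other groups, at a log2 fold change of -0.30 ± 0.11 against WT (adjusted p = 0.088, edgeR) and -0.34 ± 0.11 against sr45a (adjusted p = 0.087, edgeR). DESeq2 called PIP3 in both (adjusted p = 0.0189 against WT and 0.00932 against sr45a), as did limma on log2(FPKM + 0.1) (0.0499 and 0.0476 in that order).

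PIP2B (PIP2;2, AT2G37170) and RD28 (PIP2;3, AT2G37180), a gene named for its response to desiccation, lie on chromosome 2 with 2612 bases between them and are transcribed away from each other. PIP2B had 1455, 1410 and 954.1 CPM in SR45a-1a-OE, 833.5, 792.3 and 1063 in sr45a and 990.4, 930.4 and 849.9 CPM in WT. RD28 had 847.0, 877.8 and 605.1 CPM in SR45a-1a-OE, 618.1, 539.5 and 758.0 in sr45a and 605.6, 603.3 and 515.4 CPM in WT. For both genes, replicates 1 and 2 of SR45a-1a-OE lay above all other libraries, while replicate 3 of SR45a-1a-OE lay within the range of WT and sr45a. The log2 fold changes against WT were 0.46 ± 0.17 for PIP2B (adjusted p = 0.0848, edgeR) and 0.43 ± 0.16 for RD28 (adjusted p = 0.0921, edgeR), and neither passed. Without SR45a-1a-OE replicate 3 both were higher against WT (adjusted p = 0.011 for PIP2B and 0.0184 for RD28, edgeR). PIP2B was also called against WT by DESeq2 (adjusted p = 0.04). Against sr45a it was called by DESeq2 (adjusted p = 0.0353) and by edgeR without SR45a-1a-OE replicate 3 (0.0122) or sr45a replicate 3 (0.0413). Without replicate 3 of both lines PIP2B and RD28 passed against WT (adjusted p = 0.0031 and 0.00605, edgeR) and against sr45a (0.00202 and 0.013). Their coding sequences were 82.4% identical with gaps counted, so reads may be split between them. How the authors counted shared reads is not given in the sources used here. RD28 and PIP2A scored 83.3%, but the PIP2B sequence was longer, at 987 bases against 858 in RD28 and 864 in PIP2A. That extra length lowers the identity, so the stretch shared by PIP2B and RD28 is more alike than 82.4%. The alignment of PIP2B with RD28 spans at least 987 bases, so 82.4% of it holds more matched bases than 83.3% of 864 bases. By matched bases PIP2B was thus closer to RD28 than PIP2A was, provided that the alignment of PIP2A was little longer than its 864 bases. The other closest pairs were PIP1C and PIP1;4 at 85.0%, PIP3 and PIP2;8 at 84.0%, NLM1 and NIP1;2 at 84.0%, PIP1A and PIP1B at 83.2%, PIP1A and PIP1C at 81.6%, TIP2;2 and TIP2;3 at 81.5% and GAMMA-TIP and TIP2 at 81.1%.

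The remaining PIP1 genes did not pass in edgeR in any comparison with all libraries. PIP1A (PIP1;1, AT3G61430) had 432.4, 411.0 and 388.0 CPM in SR45a-1a-OE, 456.3, 423.4 and 451.3 in sr45a and 517.8, 520.8 and 476.6 CPM in WT, with WT above both lines (log2 fold change -0.30 ± 0.10 in SR45a-1a-OE, adjusted p = 0.0573, edgeR). DESeq2 (adjusted p = 0.00667) and limma (0.0257 to 0.0332) called PIP1A lower in SR45a-1a-OE than in WT. PIP1;4 (AT4G00430) had 480.1, 469.1 and 456.1 CPM in SR45a-1a-OE, 596.1, 493.9 and 543.4 in sr45a and 539.5, 641.4 and 542.1 CPM in WT. All SR45a-1a-OE libraries of PIP1;4 lay under both other groups, at a log2 fold change of -0.29 ± 0.11 against WT (adjusted p = 0.0954, edgeR), which passed in DESeq2 (0.0455) and in limma after filtering (0.0454 and 0.0456). PIP1;5 (AT4G23400) had 192.9, 164.1 and 207.3 CPM in SR45a-1a-OE, 228.6, 207.5 and 189.8 in sr45a and 206.6, 253.7 and 306.4 CPM in WT, and the groups overlapped. It was called lower in SR45a-1a-OE than in WT by DESeq2 (adjusted p = 0.0311), by limma after filtering (0.04 and 0.0404), and by edgeR without WT replicate 1 (0.0365), SR45a-1a-OE replicate 3 (0.0439) or replicate 3 of both lines (0.0393). PIP1C (PIP1;3, AT1G01620) had 577.1, 624.0 and 498.9 CPM in SR45a-1a-OE, 546.9, 492.6 and 539.8 in sr45a and 592.3, 625.5 and 508.2 CPM in WT, also with overlap. PIP2;4 and PIP2;5 stayed between 5.17 and 14.9 FPKM in every library and did not pass in edgeR with all libraries. Without replicate 3 of both lines PIP2;4 was higher in SR45a-1a-OE than in sr45a (adjusted p = 0.033, edgeR).

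TIPs held the largest share of calls. Of 6 tested TIPs, 4 passed in SR45a-1a-OE against WT (66.7%, beside 15.3% of all genes), 1 higher and 3 lower. In sr45a against WT 2 passed, both higher (33.3%, beside 1.62%). In SR45a-1a-OE against sr45a 5 passed, all lower (83.3%, beside 7.26%). Both counts with sr45a include TIP3;1, which met the count filter only through its sr45a libraries. GAMMA-TIP and TIP2 encode the abundant water channels of the vacuole membrane in growing and mature cells, which also pass hydrogen peroxide.

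GAMMA-TIP (chr2:15445294-15446621) had 1606, 1647 and 1605 CPM in SR45a-1a-OE, 2429, 2110 and 2084 in sr45a and 2113, 2321 and 2190 CPM in WT. TIP2 (chr3:9722443-9723904) had 2004, 1955 and 2008 CPM in SR45a-1a-OE, 3170, 2696 and 2653 in sr45a and 2695, 2900 and 2717 CPM in WT. For both, the 3 SR45a-1a-OE libraries lay close together and under every other library, and sr45a and WT overlapped. The log2 fold change of GAMMA-TIP in SR45a-1a-OE was -0.45 ± 0.11 against WT (adjusted p = 0.0218, edgeR) and -0.45 ± 0.11 against sr45a (adjusted p = 0.0355, edgeR). That of TIP2 was -0.48 ± 0.12 against WT (adjusted p = 0.0195, edgeR) and -0.51 ± 0.12 against sr45a (adjusted p = 0.0252, edgeR). Against WT both calls were lost without SR45a-1a-OE replicate 1 or any 1 WT library, with adjusted p (edgeR) of 0.0532 to 0.106 for GAMMA-TIP and 0.0504 to 0.095 for TIP2. Against sr45a both were lost without SR45a-1a-OE replicate 1 or 2 or sr45a replicate 1 or 2, with adjusted p (edgeR) of 0.0595 to 0.169 for GAMMA-TIP and 0.05 to 0.131 for TIP2. With only the 6 libraries of SR45a-1a-OE and sr45a fitted, the adjusted p (edgeR) was 0.102 for GAMMA-TIP and 0.079 for TIP2. In limma on log2(FPKM + 1) of all genes with no filter, neither passed against WT (adjusted p 0.0627 for GAMMA-TIP and 0.0675 for TIP2) or against sr45a (0.0827 and 0.0763 in that order of genes).

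TIP2;2 (AT4G17340, chr4:9698940-9700472), a vacuolar water channel distinct from the gene the files call TIP2, had 92.6, 69.7 and 83.1 CPM in SR45a-1a-OE, 132.0, 113.6 and 142.6 in sr45a and 120.8, 119.4 and 123.1 CPM in WT. All SR45a-1a-OE libraries lay under the other 6. Its log2 fold change was -0.57 ± 0.12 against WT (adjusted p = 0.0115, edgeR) and -0.66 ± 0.12 against sr45a (adjusted p = 0.0104, edgeR). The call against WT held in all 16 alternatives run, and the call against sr45a was lost without sr45a replicate 1 (adjusted p = 0.058, edgeR).

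TIP2;3 (AT5G47450), which passes ammonia as well as water, had 30.3, 25.6 and 21.9 CPM in SR45a-1a-OE, 36.0, 38.5 and 41.8 in sr45a and 28.8, 29.8 and 37.2 CPM in WT. SR45a-1a-OE lay under sr45a without overlap, and overlapped WT. It passed in SR45a-1a-OE against sr45a (log2 fold change -0.58 ± 0.14, adjusted p = 0.0286, edgeR) and not against WT (-0.30 ± 0.14, adjusted p = 0.153, edgeR). The call was lost without SR45a-1a-OE replicate 2 (adjusted p = 0.0598, edgeR), sr45a replicate 1 (0.0843) or sr45a replicate 2 (0.0858), and without replicate 3 of both lines (0.0677).

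A further gene of this branch, DELTA-TIP (TIP2;1, AT3G16240), is described in the files as a delta tonoplast integral protein, so the word rule left it out, and it was added after its values were seen. It had 293.1, 297.6 and 384.3 CPM in SR45a-1a-OE, 705.5, 587.4 and 478.7 in sr45a and 589.6, 668.5 and 676.4 CPM in WT. SR45a-1a-OE lay under all other libraries, with a log2 fold change of -0.99 ± 0.16 against WT (adjusted p = 0.00416, edgeR) and -0.86 ± 0.16 against sr45a (adjusted p = 0.00991, edgeR). The call against WT held in all 16 alternatives, and that against sr45a was lost without SR45a-1a-OE replicate 1 or sr45a replicate 1 (adjusted p up to 0.0587, edgeR).

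TIP4;1 (AT2G25810, chr2:11012499-11014171), a TIP known mostly from roots that also passes urea, moved the other way from the abundant TIPs. It had 5.37, 5.18 and 3.57 CPM in SR45a-1a-OE, 5.09, 4.55 and 3.68 in sr45a and 1.86, 2.62 and 2.14 CPM in WT. Every library of both lines lay above every WT library, and the lines overlapped. The log2 fold change was 1.09 ± 0.22 in SR45a-1a-OE (adjusted p = 0.01, edgeR) and 1.01 ± 0.22 in sr45a (adjusted p = 0.0486, edgeR), each against WT. The call in SR45a-1a-OE held in all 16 alternatives, whereas the call in sr45a was lost when any 1 of the 6 libraries compared was left out (adjusted p 0.0522 to 0.191, edgeR), with a filter of at least 1 CPM in 3 libraries (0.0509) and in limma on log2(FPKM + 1) with no filter (0.0759).

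TIP3;1 (AT1G73190, chr1:27521944-27523332) and BETA-TIP (TIP3;2, AT1G17810, chr1:6130025-6131627) encode the TIPs of seed storage vacuoles. TIP3;1 had 6, 15 and 4 counts in SR45a-1a-OE, 54, 27 and 16 counts in sr45a and 2, 2 and 6 counts in WT. All sr45a libraries lay above the others, and SR45a-1a-OE overlapped WT. Outside sr45a, only SR45a-1a-OE replicate 2 reached the filter's minimum count of 10. The gene was thus tested only through its sr45a libraries. Its log2 fold change was 3.33 ± 0.62 in sr45a against WT (adjusted p = 0.0219, edgeR), 1.34 ± 0.75 in SR45a-1a-OE against WT (adjusted p = 0.243, edgeR) and -1.99 ± 0.54 in SR45a-1a-OE against sr45a (adjusted p = 0.0454, edgeR). Against WT the sr45a call was lost without sr45a replicate 1 (adjusted p = 0.0833, edgeR) or 2 (0.0644) or WT replicate 1 (0.106) or 2 (0.116). Against sr45a the SR45a-1a-OE call was lost without SR45a-1a-OE replicate 1 (adjusted p = 0.176, edgeR) or 3 (0.0753) or sr45a replicate 1 (0.23) or 2 (0.108), and with only those 6 libraries fitted (0.0818). In limma on log2(FPKM + 1) with no filter, neither call was made (adjusted p 0.0612 in sr45a against WT and 0.0673 between the lines).

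BETA-TIP had 2, 1 and 0 counts in SR45a-1a-OE, 16, 15 and 3 counts in sr45a and 0, 1 and 0 counts in WT, too few to be tested after filtering. Its sr45a libraries lay above all others. Of the 9 seed marker genes (cruciferins, albumins and oleosins), 9 were higher in sr45a against WT, beside 0.861% of all genes. In SR45a-1a-OE against WT 2 were higher, beside 6.76%. In SR45a-1a-OE against sr45a 0 were higher and 5 lower, beside 2.81% and 4.45%. Apart from CRA1 and OLEO2, these markers met the count filter only with their sr45a libraries, where they were high. The counts of seed markers in both comparisons with sr45a are therefore not independent of that filter. Their summed level was 1.86–10.04 CPM in SR45a-1a-OE, 27.6–53.1 CPM in sr45a and 0.709–1.3 CPM in WT. The part of seed-type RNA in the TIP3;1 and BETA-TIP values was not tested. The seed markers at 0 in every library of a group were CRB in SR45a-1a-OE and WT, and SESA1 and SESA2 in WT.

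The 300 bases before the annotated start of the TIPs that passed against WT follow, from the TAIR10.1 genome, to show what these upstream regions hold. The coordinates are chr2:15444994-15445293 (+ strand) for GAMMA-TIP, chr3:9723905-9724204 (- strand) for TIP2, chr4:9698640-9698939 (+ strand) for TIP2;2, chr2:11012199-11012498 (+ strand) for TIP4;1 and chr1:27521644-27521943 (+ strand) for TIP3;1. Capitals mark 3 motifs searched on both strands: GAANNTTC or TTCNNGAA, a pair of heat shock element units, ACGTG, the core of the abscisic acid response element, and CATGCA, the core of the RY element of seed genes.
GAMMA-TIP upstream of the start: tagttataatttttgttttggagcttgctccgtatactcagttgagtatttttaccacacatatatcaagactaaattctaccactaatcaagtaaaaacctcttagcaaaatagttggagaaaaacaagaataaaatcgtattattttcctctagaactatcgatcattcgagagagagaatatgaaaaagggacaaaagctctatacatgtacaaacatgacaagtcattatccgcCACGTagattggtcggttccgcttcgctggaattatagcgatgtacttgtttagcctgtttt
TIP2 upstream of the start: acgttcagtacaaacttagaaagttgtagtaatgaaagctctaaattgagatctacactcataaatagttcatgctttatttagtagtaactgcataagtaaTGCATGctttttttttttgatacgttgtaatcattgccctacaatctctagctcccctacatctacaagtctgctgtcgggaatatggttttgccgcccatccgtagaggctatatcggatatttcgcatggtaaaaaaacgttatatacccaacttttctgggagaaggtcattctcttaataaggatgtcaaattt
TIP2;2 upstream of the start: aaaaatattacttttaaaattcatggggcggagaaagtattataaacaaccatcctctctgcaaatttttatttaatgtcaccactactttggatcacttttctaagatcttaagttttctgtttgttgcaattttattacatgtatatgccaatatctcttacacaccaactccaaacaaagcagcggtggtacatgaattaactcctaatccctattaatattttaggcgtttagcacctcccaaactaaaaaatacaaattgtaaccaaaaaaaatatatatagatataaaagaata
TIP4;1 upstream of the start: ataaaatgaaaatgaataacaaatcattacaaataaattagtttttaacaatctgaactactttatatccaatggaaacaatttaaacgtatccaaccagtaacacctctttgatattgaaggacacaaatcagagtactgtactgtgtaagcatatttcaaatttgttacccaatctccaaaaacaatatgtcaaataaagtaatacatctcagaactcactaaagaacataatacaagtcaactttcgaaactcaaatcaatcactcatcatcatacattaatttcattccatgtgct
TIP3;1 upstream of the start: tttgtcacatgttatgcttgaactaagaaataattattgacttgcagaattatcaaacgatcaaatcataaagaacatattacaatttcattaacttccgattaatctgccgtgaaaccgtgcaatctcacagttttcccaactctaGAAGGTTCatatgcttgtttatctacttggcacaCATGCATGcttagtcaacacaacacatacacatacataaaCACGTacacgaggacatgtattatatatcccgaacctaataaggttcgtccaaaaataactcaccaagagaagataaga
TIP3;1 held the 3 motifs, with its CATGCA matches overlapping on opposite strands. GAMMA-TIP held ACGTG, TIP2 held CATGCA, and the windows of TIP2;2 and TIP4;1 held no capitals. Over all 35 genes the heat shock pair was in 7 windows (20%), against 19.3% of 27443 protein-coding genes. ACGTG was in 4 (11.4%), against 25.6%, and CATGCA in 10 (28.6%), against 10.3%. A match describes letters and says nothing of binding.

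Among the NIPs, which carry uncharged solutes, 3 of 6 tested genes passed in SR45a-1a-OE against WT (50%, beside 15.3% of all genes). NIP5;1 (AT4G10380, chr4:6431161-6435396) encodes the boric acid channel that takes up boron in roots. It had 22.6, 20.9 and 24.3 CPM in SR45a-1a-OE, 33.6, 33.2 and 29.3 in sr45a and 32.7, 33.5 and 34.8 CPM in WT. SR45a-1a-OE lay under the other 6 libraries, and sr45a overlapped WT. The log2 fold change was -0.58 ± 0.10 against WT (adjusted p = 0.00511, edgeR), which held in all 16 alternatives, and -0.50 ± 0.10 against sr45a (adjusted p = 0.0133, edgeR). The call against sr45a was lost without SR45a-1a-OE replicate 1 (adjusted p = 0.06, edgeR), sr45a replicate 1 (0.0795) or sr45a replicate 2 (0.057).

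NIP3;1 (AT1G31885, chr1:11450315-11452068), a NIP that can pass arsenite, had 0.547, 0.370 and 1.35 CPM in SR45a-1a-OE, 0.879, 1.01 and 0.995 in sr45a and 3.28, 2.80 and 2.46 CPM in WT. Both lines lay under WT without overlap. In SR45a-1a-OE the log2 fold change was -1.90 ± 0.37 (adjusted p = 0.00837, edgeR), which held in all 16 alternatives. In sr45a it was -1.57 ± 0.36, just short of the threshold (adjusted p = 0.0537, edgeR), and past it in DESeq2 (adjusted p = 0.00411), in limma on log2(FPKM + 1) (0.0277) and in edgeR with no filter (0.0339), with only the 6 libraries compared (0.00653) or without replicate 3 of both lines (0.0219).

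NIP2;1 (AT2G34390, chr2:14514487-14515988), a lactic acid channel known from oxygen-starved roots, had 21, 36 and 27 counts in SR45a-1a-OE, 10, 15 and 16 counts in sr45a and 12, 10 and 9 counts in WT. Every SR45a-1a-OE library lay above every other library in CPM. The log2 fold change was 1.48 ± 0.33 in SR45a-1a-OE against WT (adjusted p = 0.0142, edgeR) and 0.53 ± 0.36 in sr45a against WT (adjusted p = 0.514, edgeR). The call was lost without WT replicate 2 (adjusted p = 0.0604, edgeR) or 3 (0.0507). NLM1 (NIP1;1), NIP1;2 and NIP6;1 stayed between 2.38 and 11.5 FPKM in every library and did not pass in edgeR with all libraries. NIP1;2 was called lower in SR45a-1a-OE by limma after filtering against WT (adjusted p = 0.0429 and 0.0399) and, on log2(FPKM + 0.1), against sr45a (0.049), and by edgeR against sr45a without replicate 3 of both lines (0.0435).

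Of the 3 SIPs, SIP1A (SIP1;1, AT3G04090, chr3:1071984-1074244), a water channel of the endoplasmic reticulum, had 147.8, 152.0 and 126.0 CPM in SR45a-1a-OE, 122.6, 120.1 and 147.6 in sr45a and 97.9, 104.3 and 99.6 CPM in WT. All libraries of both lines lay above WT. The log2 fold change was 0.50 ± 0.11 in SR45a-1a-OE (adjusted p = 0.0141, edgeR) and 0.37 ± 0.11 in sr45a (adjusted p = 0.134, edgeR, and 0.0498 in DESeq2). The SR45a-1a-OE call was lost without SR45a-1a-OE replicate 1 (adjusted p = 0.0559, edgeR) or WT replicate 1 (0.0518) or 2 (0.0512). SIP1;2 and SIP2;1 lay between 3.30 and 11.2 FPKM and did not pass.

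**Figure D4:**
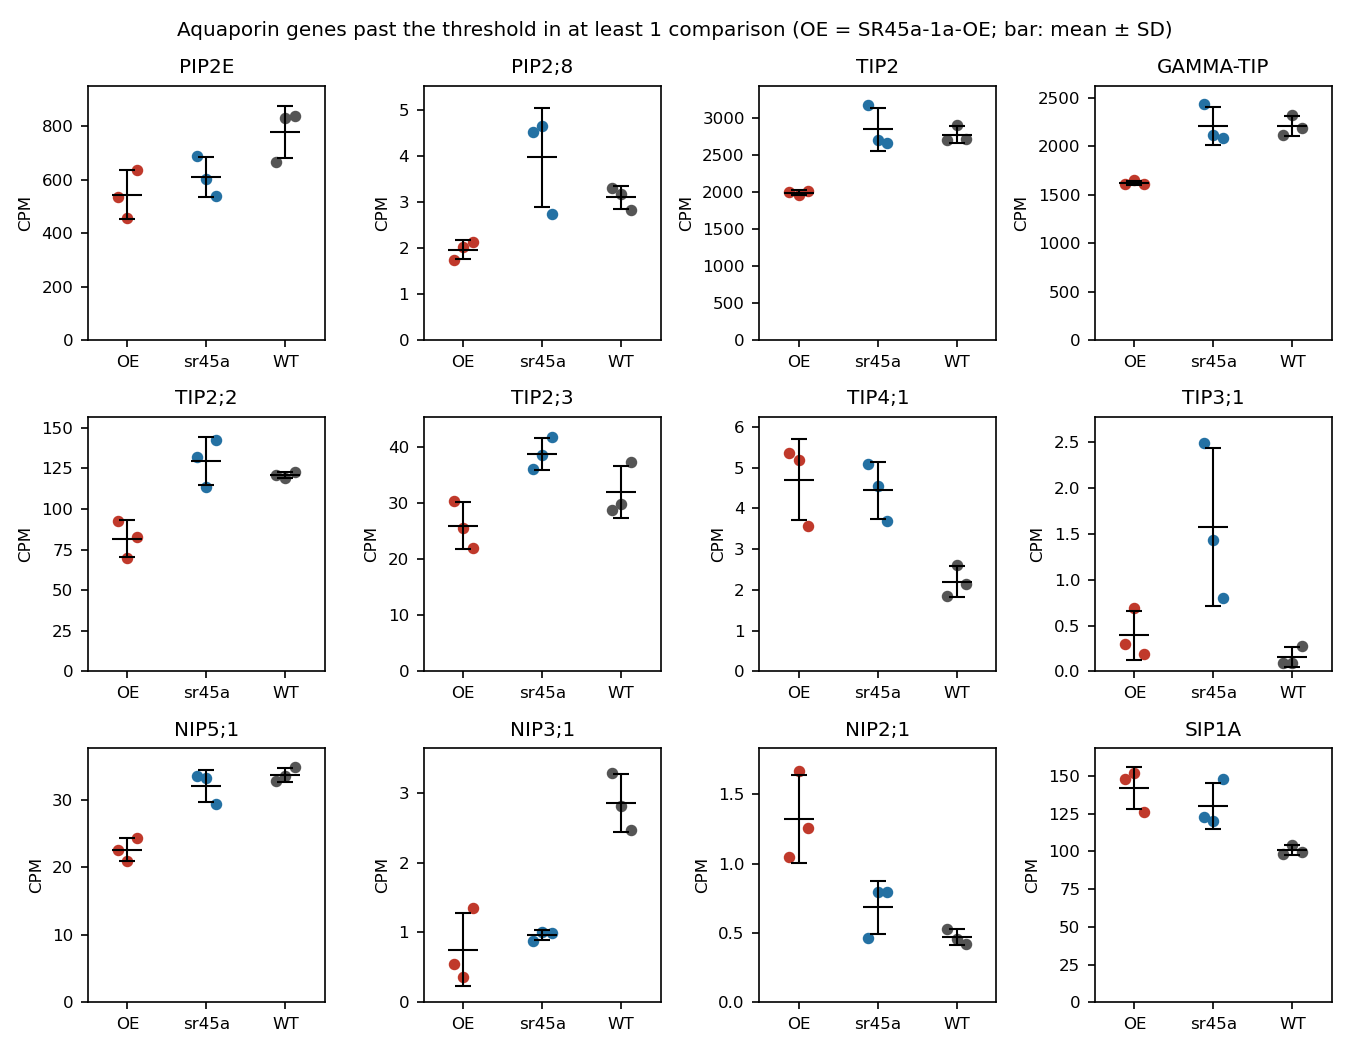
CPM by library of the 12 aquaporin genes that passed in at least 1 comparison, with bars at the mean ± SD of 3 libraries, for SR45a-1a-OE (OE), sr45a and WT from left to right. GAMMA-TIP averages 1619, 2208 and 2208 CPM and TIP4;1 4.71, 4.44 and 2.21 CPM across the genotypes in that order.

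The 7 members not tested were BETA-TIP, TIP1;3, TIP5;1, NIP4;2 and NIP7;1, of which the last 4 are known from pollen or anthers, and the 2 unclassified loci. Apart from BETA-TIP, none of them had more than 5 counts in a library.

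Since SR45a acts in splicing, the transcripts of each gene were compared as well. The deposited tables list 53 transcripts of the 35 genes, with 12 genes having 2 or more, and 39 transcripts were tested. In edgeR, 0 passed in SR45a-1a-OE against WT (13 at an unadjusted p under 0.05), beside 0.0389% of all transcripts tested, 0 in sr45a against WT (7 unadjusted), beside 0.0556%, and 0 in SR45a-1a-OE against sr45a (10 unadjusted), beside 0.0667%. The share of each transcript within its gene was tested with diffSpliceDGE in 9 genes, and 0 passed in all 3 comparisons (0 at an unadjusted p under 0.05), where 0.342%, 0.292% and 0.342% of all genes tested passed in the order just given. With so few transcripts called in the whole table, these counts leave differences of transcripts undetected rather than absent.

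The estimates can differ from the gene counts. TIP2 is listed with 1 transcript, AT3G26520.1, with estimated counts of 72818, 79261 and 89406 in SR45a-1a-OE, 125584, 86926 and 209623 in sr45a and 239720, 242242 and 230831 in WT. All sr45a estimates lay under WT, whereas the gene counts of sr45a and WT overlapped. The log2 fold change of the estimates was -1.51 ± 0.28 in SR45a-1a-OE against WT (adjusted p = 0.12, edgeR) and -0.66 ± 0.27 in sr45a against WT (adjusted p = 0.662, edgeR), and the cause of the disagreement was not tested. For GAMMA-TIP, also with 1 transcript, the estimates gave -0.46 ± 0.08 and -0.03 ± 0.08 in the same order, close to its gene counts. Values of PIP1B show the spread of the estimates. Its transcript AT2G45960.3 made up 25.5%, 19.2% and 24.3% of the gene in SR45a-1a-OE, 24.1%, 25.2% and 18.8% in sr45a and 18.1%, 0.0% and 0.0% in WT. Replicates 2 and 3 of WT are listed at 0 and replicate 1 lies near the other groups. Without WT replicate 1 the transcript passed in SR45a-1a-OE against WT (adjusted p = 0.0178, edgeR) and in sr45a against WT (adjusted p = 0.0203, edgeR), and the usage of PIP1B transcripts passed too. Those fits left out the only WT estimate above 0, so their passes restate the listed zeros and lend no support. AT2G45960.2 made up 25.2%, 57.3% and 42.3% of the gene in WT, so its share was higher where AT2G45960.3 stood at 0. How reads were assigned between these transcripts was not tested.

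Genes that work with aquaporins were read from 4 lists. Of 10 tested boron, ammonium and urea transporters, 0 were higher and 5 lower in SR45a-1a-OE against WT, where 8.59% of all genes were lower, with a median log2 fold change of -0.44, against 0.01 over all genes, while 0 passed in sr45a against WT in edgeR (1 at an unadjusted p under 0.05), DESeq2 or limma. DUR3, a urea transporter, had 3.43, 2.92 and 3.67 CPM in SR45a-1a-OE, 6.43, 5.66 and 5.82 in sr45a and 7.66, 5.98 and 6.32 CPM in WT (SR45a-1a-OE against WT -0.99 ± 0.16 on the log2 scale, adjusted p = 0.00486, edgeR). SR45a-1a-OE lay under all other libraries. AMT1;3, an ammonium transporter, had a log2 fold change of -1.37 ± 0.26 against WT (adjusted p = 0.00837, edgeR). BOR3, of the borate exporter family, had -0.48 ± 0.11 (adjusted p = 0.0168, edgeR). The ammonium transporters AMT1;2 and AMT2 fell as well. The call of AMT1;2 was lost without SR45a-1a-OE replicate 1 or 3 or WT replicate 1 or 2 (adjusted p up to 0.158, edgeR). It was also lost with only the 6 libraries compared (adjusted p = 0.0532, edgeR) and without replicate 3 of both lines (0.0735). In limma on log2(FPKM + 1) with no filter AMT1;2 did not pass either (adjusted p = 0.065). The call of AMT2 was lost without SR45a-1a-OE replicate 1 or WT replicate 2 (adjusted p up to 0.0858, edgeR). The calls of DUR3 and AMT1;3 held in all 16 alternatives, and that of BOR3 was lost without SR45a-1a-OE replicate 1, WT replicate 2 or WT replicate 3 (adjusted p up to 0.0769, edgeR).

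Of 10 tested plasma membrane proton pumps, which drive the solute uptake that water follows, 0 were higher and 2 lower in SR45a-1a-OE against WT, beside 8.59% of all genes lower. Their median log2 fold change was 0.04, against 0.01 over all genes. In sr45a against WT 0 passed in edgeR (3 at an unadjusted p under 0.05), DESeq2 or limma. AHA11 had a log2 fold change of -1.03 ± 0.18 (adjusted p = 0.00518, edgeR) and AHA2 of -0.51 ± 0.13 (adjusted p = 0.0213, edgeR). AHA11 held in all 16 alternatives, and AHA2 was lost without SR45a-1a-OE replicate 1, WT replicate 1 or WT replicate 2 (adjusted p up to 0.0879, edgeR). Of 15 subunits of the tonoplast proton pumps, which energize the vacuole, 0 passed in edgeR in SR45a-1a-OE against WT (3 at an unadjusted p under 0.05), where DESeq2 and limma each called 3, and 0 in sr45a against WT by any of these tools (0 unadjusted). Of 15 regulators of aquaporins, 2 passed in SR45a-1a-OE against WT, where 15.3% of all genes did, so their share was no larger than the background. In sr45a against WT 2 passed, beside 1.62% of all genes. In both lines these were TSPO, higher, and HCR1, lower. TSPO, which leads a PIP to degradation, had 2.78, 2.92 and 2.92 CPM in SR45a-1a-OE, 4.67, 2.22 and 3.38 in sr45a and 1.42, 1.33 and 1.44 CPM in WT. Its log2 fold change was 1.04 ± 0.27 in SR45a-1a-OE (adjusted p = 0.0238, edgeR) and 1.3 ± 0.26 in sr45a (adjusted p = 0.0313, edgeR). HCR1, a Raf-like kinase that acts on root water transport, had -0.49 ± 0.10 in SR45a-1a-OE (adjusted p = 0.00973, edgeR) and -0.55 ± 0.10 in sr45a (adjusted p = 0.0191, edgeR). Both lines lay outside the WT range for these 2 genes. In SR45a-1a-OE, TSPO was lost without SR45a-1a-OE replicate 1 or any 1 WT library (adjusted p up to 0.0869, edgeR). In sr45a, TSPO was lost without any 1 of the 6 libraries other than sr45a replicate 2, and HCR1 without any 1 other than sr45a replicate 3 (adjusted p up to 0.138 and 0.0949, edgeR). In limma HCR1 did not pass in sr45a (adjusted p 0.0603 to 0.0795), and with no filter TSPO passed in neither line (0.0517 in SR45a-1a-OE and 0.0643 in sr45a). Between the lines, where 7.26% of all genes passed, 1 of 15 regulators (UBC32) was higher in SR45a-1a-OE than in sr45a, beside 2.81% of all genes. UBC32 lay near the threshold (adjusted p = 0.0471, edgeR), and limma on log2(FPKM + 1) called 0 of the 15 regulators there. Lower in SR45a-1a-OE than in sr45a were 1 of 15 tonoplast pump subunits (VHA-A) and 2 of 10 boron, ammonium and urea transporters (BOR3 and DUR3), beside 4.45%. VHA-A also lay near the threshold (adjusted p = 0.0438, edgeR). Of the 10 plasma membrane proton pumps 0 passed in edgeR (3 at an unadjusted p under 0.05), while DESeq2 called 2 and limma 0. UBC32 and VHA-A are named after their values were seen.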

How the data were processed

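Per the labels' protocols, total RNA was extracted by the authors with Trizol, read as 150-bp pairs and trimmed by fastp to a minimum length of 36 bp. How reads were aligned and counted, and against which build and gene models, is not given in the sources used here. The authors' deposited gene tables hold, per the file headers, raw counts and FPKM for 27218 genes, and the deposited transcript tables hold estimated counts and FPKM for 68898 transcripts, of which 21725 carry no gene identifier and were left out. The transcript estimates of a library summed to 3.79–3.87 times its gene counts, so they were used for shares and relative differences only. All 35 gene positions equal TAIR10.1, the RefSeq build from which sequences were read.

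Counts were tested with edgeR (version 4.0.16, R 4.3.3). After filterByExpr (minimum count 10, minimum total 15) and TMM scaling, 1 quasi-likelihood model held all 9 libraries, the 3 genotypes were compared in pairs by F tests, and p-values had Benjamini-Hochberg adjustment over all genes tested. Standard errors come from the F statistics. Rounded transcript estimates were fitted likewise, and usage was tested with diffSpliceDGE and Simes p-values. Alternatives used DESeq2 1.42.0, limma 3.58.1 on log2(FPKM + 1) and log2(FPKM + 0.1), other filters and left-out libraries. The scripts were checked on counts simulated with changes in SR45a-1a-OE against WT. At an absolute log2 fold change of 1, the gene fit called 94 of 100 changed genes and the transcript fit 0 of 100 changed transcripts. At 3 the fits called 100 of 100 genes and 55 of 100 transcripts. The usage fit called 18 of 200 changed genes, so the transcript and usage tests missed most such changes. The longest coding sequence of each gene was aligned globally, and identity is matches over alignment length, gaps included.

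The genes described, the partner and marker lists and the tests were chosen with earlier results of these data known. Values in each library are given for members that passed, members averaging at least 100 FPKM in a group and both seed TIPs. From each partner list the 3 called genes with the smallest p against WT are given.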

Additional observations from a re-analysis of the deposited data

How the results depend on the processing

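Of the 9 members that passed in SR45a-1a-OE against WT, TIP2;2, TIP4;1, NIP3;1 and NIP5;1 passed in all 16 alternatives, and no call changed sign in any alternative run. In SR45a-1a-OE against WT the count of 9 became 14 with DESeq2, 14 with limma on log2(FPKM + 0.1), 13 without replicate 3 of both lines and 4 to 12 without 1 library, with 4 without WT replicate 2 and 5 without SR45a-1a-OE replicate 1 or WT replicate 3. In sr45a against WT the count of 2 became 4 with no filter, where BETA-TIP was among the 4, 0 with at least 1 CPM in 3 libraries, 4 with DESeq2, 1 with limma on all genes, 4 without replicate 3 of both lines and 0 to 2 without 1 library, with 0 without sr45a replicate 1 or 2 or WT replicate 1 or 2 and 1 without WT replicate 3. In SR45a-1a-OE against sr45a the count of 7 became 3 with only the 6 libraries compared, 3 with limma on all genes, 11 without replicate 3 of both lines and 0 to 9 without 1 library, with 0 without sr45a replicate 1, 1 without sr45a replicate 2, 2 without SR45a-1a-OE replicate 1 and 3 without SR45a-1a-OE replicate 2. The count over the partner lists, 9, 2 and 4 in the 3 comparisons in that order, became 15 with DESeq2, 14 with limma on log2(FPKM + 1), 14 with log2(FPKM + 0.1) and 4 to 13 without libraries in the first, 1 with limma on all genes and 0 to 1 without libraries in the second, and 9 with DESeq2, 1 with only 6 libraries and 0 to 9 without libraries in the third. Transcript and usage counts were 0 to 1 without 1 library in both comparisons with WT. The family's mean share of counts without any 1 library, chosen after seeing the data, was 1.28% to 1.33% in SR45a-1a-OE, 1.48% to 1.55% in sr45a and 1.49% to 1.57% in WT. The cause of these shifts was not tested, and the fits without libraries also hold fewer libraries.

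Samples that share a replicate number did not deviate together: the correlation of their deviations from the group means was -0.33 to 0.19, and not every library correlated best with its own number. With the replicate block 6 members passed in SR45a-1a-OE against WT, 1 in sr45a against WT and 2 in SR45a-1a-OE against sr45a, and 0 and 1 genes of the partner lists in the comparisons of sr45a with WT and of the lines.

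Among the tested members, DELTA-TIP and the partner genes called against WT, for which single values were recomputed, signs turned for those below, with log2 fold changes of -0.13 to 0.11 that did not pass. Ranges without libraries in SR45a-1a-OE against WT were -0.10 to 0.06 for PIP1C (0.062), -0.07 to 0.07 for PIP2A (0.074), -0.079 to 0.21 for NLM1 and -0.32 to 0.13 for NIP6;1, with the value in parentheses that without replicate 3 of both lines. In sr45a against WT they were -0.15 to 0.0085 for PIP1;4, -0.19 to 0.037 for PIP2B, -0.18 to 0.080 for PIP2;4, -0.098 to 0.088 for PIP2;5 (-6.9e-05 with the replicate block), -0.024 to 0.089 for PIP3, -0.052 to 0.081 for TIP2, -0.072 to 0.082 for NIP1;2, -0.10 to 0.15 for NIP6;1, -0.057 to 0.10 for BOR3 and -0.28 to 0.0027 for DELTA-TIP. GAMMA-TIP lay at -0.075 to 0.039 without libraries, 0.0030 with DESeq2 size factors and with DESeq2, 0.0031 with no filter, 0.0039 with 1 CPM, 0.0074 with 6 libraries and 0.0090 in the 3 limma fits. In SR45a-1a-OE against sr45a the ranges were -0.058 to 0.065 for PIP1B (-0.0064 with 6 libraries, -0.056 in the 3 limma fits), -0.16 to 0.065 for PIP2A, -0.036 to 0.25 for TIP4;1, -0.37 to 0.088 for NIP6;1 and -0.18 to 0.047 for SIP1;2.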
